A study of Mus musculus with 9 samples.

Results

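Inflammatory chemokine transcripts were followed in cultured mouse myeloid progenitors of 2 genotypes, with and without a phosphatase inhibitor. The genes were the 8 rows of the deposited count table whose symbol is Ccl2, Ccl3, Ccl4, Ccl6, Ccl9, Cxcl1, Cxcl2 or Cxcl3, out of 24421 symbols in all. The rule uses the symbols and no measured value, but the members were chosen with earlier results of these data known. The 9 bulk RNA-seq libraries came from bone marrow of mice on a C57BL/6 background, depleted of lineage-positive cells and expanded for 5 days with interleukin 3, interleukin 6 and stem cell factor into cells the submitters call myeloid blast like. The 3 groups held 3 libraries each. Wild-type (WT) cells received vehicle, and cells from Tet2-/-Flt3ITD mice, called mutant here, received vehicle or SHP099 for 24 h. No vehicle time is recorded for the WT cells. By their label the mutant cells have no intact Tet2, the gene of an enzyme that oxidizes methylated cytosines in DNA, and have the ITD allele of Flt3, an internal tandem duplication in a receptor tyrosine kinase of early progenitors. SHP099 inhibits the tyrosine phosphatase SHP2, the product of Ptpn11, at an allosteric site. The mutant cultures were set up from individual mice. Individual mice are not named in the labels of the WT cultures, so p-values measure the spread between these libraries, which may be technical. No SHP099-treated WT cells were analysed here, the labels state neither the dose nor the age of the mice, and every mutant culture carries both mutations.

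Chemokines are small secreted proteins that bind heptahelical receptors on leukocytes and steer their migration. CC ligands such as CCL2, CCL3 and CCL4 attract mainly monocytes, macrophages and lymphocytes, while the CXC ligands CXCL1, CXCL2 and CXCL3 attract neutrophils through CXCR2. In myeloid cells many of these genes are induced by NF-kB and AP-1 transcription factors after inflammatory stimulation, and their short-lived mRNAs are targets of the decay factor tristetraprolin, encoded by Zfp36. Ccl6 and Ccl9 are rodent genes whose products signal through CCR1, and they are known to be transcribed in myeloid cells without acute stimulation.

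The 8 genes lie on 2 chromosomes. The 5 CC genes are on chromosome 11 of GRCm38, with Ccl9 (chr11:83572919-83578636), Ccl6 (chr11:83587882-83593087), Ccl3 (chr11:83647844-83649355) and Ccl4 (chr11:83662584-83664683) within one stretch and Ccl2 apart from them (chr11:82035571-82037453). The 3 CXC genes are on chromosome 5, Cxcl3 at chr5:90786103-90789600, Cxcl1 at chr5:90891241-90893115 and Cxcl2 at chr5:90903871-90905938. All are annotated as protein-coding. Ccl2 overlaps the gene Gm17268, and Ccl6 overlaps E230016K23Rik, each on the opposite strand. Whether the counting used strand is not given in the sources used here, so reads of these overlapping genes may not be told apart.

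RefSeq promoter sequences (GRCm38.p6, 250 bases before to 50 after the annotated start) were matched for 6 of the 8 genes. The kB motif bound by NF-kB was searched as GGNNTTTCC on both strands. It was found in 4 of the 6 promoters, those of Cxcl1, Cxcl2, Cxcl3 and Ccl9, and in 5.82% of the 32851 promoters in the table. The stretches from 110 to 11 bases before the start are printed for these 4 genes and, for comparison, for Ccl6, the gene with the highest level. Capitals mark matches to the kB motif, to the AP-1 motif TGANTCA and to the letters TATAAA of the promoter box bound by the TATA-binding protein.
Cxcl1: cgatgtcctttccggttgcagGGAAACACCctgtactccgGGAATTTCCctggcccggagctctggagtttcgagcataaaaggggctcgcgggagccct
Cxcl2: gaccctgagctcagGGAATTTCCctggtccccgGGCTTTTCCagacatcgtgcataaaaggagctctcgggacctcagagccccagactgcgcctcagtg
Cxcl3: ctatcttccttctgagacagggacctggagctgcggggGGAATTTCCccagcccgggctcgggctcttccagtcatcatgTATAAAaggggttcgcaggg
Ccl9: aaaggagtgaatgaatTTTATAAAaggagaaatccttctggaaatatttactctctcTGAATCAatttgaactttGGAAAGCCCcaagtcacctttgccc
Ccl6: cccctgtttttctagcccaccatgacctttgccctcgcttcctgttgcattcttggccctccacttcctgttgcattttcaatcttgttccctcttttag
The stretches lie at chr5:90891135-90891234, chr5:90903789-90903888 and chr5:90785991-90786090 on the plus strand for Cxcl1, Cxcl2 and Cxcl3. They lie at chr11:83578647-83578746 for Ccl9 and chr11:83593098-83593197 for Ccl6 on the minus strand. The same 9 letters, GGAATTTCC, stood on the gene's own strand in all 3 CXC promoters, ending 62 bases before the start in Cxcl1, 88 in Cxcl2 and 64 in Cxcl3. Cxcl2 held a further match, GGCTTTTCC, and Cxcl1 one on the other strand. In Ccl9 the kB match was on the other strand, 35 to 27 bases before the start, and this promoter held the sole AP-1 match among the 6, a motif found in 7.81% of all promoters. TATAAA was matched in Ccl9 and Cxcl3, against 13.6% of all promoters, and the C/EBP motif TTGCNNAA in none of the 6, against 10.8%. The matches are descriptions of sequence and are no evidence of binding.

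Total counts ran from 27242168 to 45810089 per library. Tet2 stood at 33.2 ± 1.48 CPM in WT, 15.5 ± 1.3 in mutant vehicle and 12.4 ± 1.28 in mutant SHP099 libraries (SD, n = 3), CPM being counts scaled by library size to a common total. SHP099 replicate 3 stood apart from replicates 1 and 2 of its group, with a chi-square per degree of freedom of 116 and 113, against 11.1 to 25.8 for all other replicate pairs. Of the myeloid markers, the neutrophil gene S100a8 and the monocyte gene Csf1r were detected in every group, at means of 4677 to 6751 CPM and 69.6 to 146 CPM. Of 9 lymphoid markers only Pax5 was at 0 in every library. The number at 0 throughout a group was 1 in WT, 2 in mutant vehicle and 3 in mutant SHP099 libraries. The list summed to 112 to 121 CPM in WT, 115 to 119 in mutant vehicle and 169 to 186 in mutant SHP099 libraries.

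The chemokine genes spanned a wide range of levels, and Ccl6 and Ccl9 together made up most of their counts, which also grow with transcript length. These 2 genes held 93.2% to 94.5% of the counts of the 8 genes in WT libraries, 94.7% to 96.3% in mutant vehicle libraries and 97.0% to 97.5% in mutant SHP099 libraries. Per kilobase of the longest coding transcript, the mean WT levels were 738 CPM per kilobase for Ccl6, 106 for Ccl9, 66.0 for Ccl3, 39.7 for Ccl4, 12.8 for Ccl2, 1.81 for Cxcl3 and 1.13 for Cxcl2. No 2 neighbours in this order had overlapping libraries in WT cells. The mean levels kept the same order in both mutant groups, but there Ccl4 and Ccl2 overlapped, Ccl4 being the higher in 2 of 3 libraries of each group. Cxcl3 and Cxcl2 overlapped in mutant vehicle cells.

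Cxcl1 had a count of 0 in all 9 libraries. A count of 0 allows up to 3 counts, or 0.0662 to 0.108 CPM by library, for counting error only. Cxcl1 was not tested, so 7 of the 8 genes passed the low-count filter. The RNA was bulk RNA, so fewer cells of a type and less RNA per cell cannot be told apart for any of these genes.

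**Figure D1:**
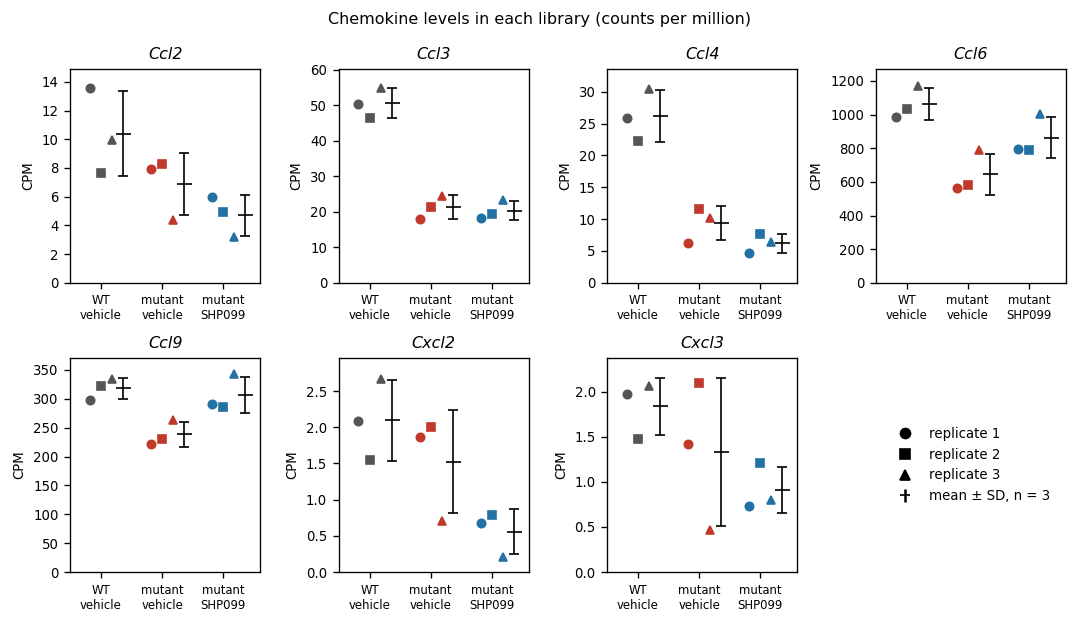
Level of each of the 7 chemokines with counts above 0, in CPM from 0 on a linear axis, for each library of the 3 groups. Symbols mark replicates 1, 2 and 3, and bars the mean ± SD (n = 3). Ccl3, Ccl4, Ccl6 and Ccl9 were higher in every WT library than in every mutant vehicle library. The share of all genes separated in this way was not counted.

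Between genotypes without the drug, 4 of the 7 tested chemokines were lower in mutant than in WT cells and none was higher. The 4 were Ccl3, Ccl4, Ccl6 and Ccl9, all in one stretch of chromosome 11. Ccl3 was 2.38-fold and Ccl4 2.78-fold lower, Ccl6 1.65-fold and Ccl9 1.33-fold lower. Of all 13270 genes tested, 14.7% were lower, 16.9% higher and 31.6% either. The median log2 fold change was -0.60 over the 7 chemokines and 0.02 over all genes tested. Overlap between groups was recorded for listed genes only, so the share of all genes without overlap is not known here.

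Ccl3 encodes macrophage inflammatory protein 1 alpha, a ligand of CCR1. Its level was 50.3, 46.3 and 54.9 CPM in WT replicates 1 to 3 and 17.8, 21.4 and 24.5 CPM in mutant vehicle replicates 1 to 3. Every mutant library was lower than every WT library. The log2 fold change was -1.25 (SE 0.13), with an adjusted p of 3e-04 by edgeR's quasi-likelihood test.

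Ccl4, the gene for the attractant macrophage inflammatory protein 1 beta, stood at 25.8, 22.3 and 30.4 CPM in WT and at 6.32, 11.6 and 10.3 CPM in mutant vehicle libraries. The groups did not overlap. Its log2 fold change was -1.48 (SE 0.23, edgeR adjusted p = 0.0016).

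Ccl6 was the most abundant of the 8 genes. It was measured at 986, 1035 and 1168 CPM in WT libraries and 565, 584 and 787 CPM in mutant vehicle libraries. All 3 mutant libraries lay below the lowest WT library, and replicate 3 was the highest of both groups. The log2 fold change was -0.72 (SE 0.14, edgeR adjusted p = 0.0041).

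Ccl9 was measured at 299, 323 and 334 CPM in WT and 222, 231 and 263 CPM in mutant vehicle libraries. Its groups did not overlap either, and the difference was the smallest of the 4 called, a log2 fold change of -0.41 (SE 0.08), with an edgeR adjusted p of 0.0057.

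The other 3 tested genes did not pass the threshold. Ccl2, which encodes the monocyte attractant MCP-1, stood at 13.5, 7.66 and 9.95 CPM in WT and 7.90, 8.30 and 4.4 CPM in mutant vehicle libraries, with overlapping groups and a log2 fold change of -0.60 with an SE of 0.29 (edgeR adjusted p = 0.15). Cxcl2 was at 2.09, 1.55 and 2.67 CPM in WT and 1.86, 2.0 and 0.711 CPM in mutant vehicle libraries, a log2 fold change of -0.47 with an SE of 0.43 (edgeR adjusted p = 0.44). Cxcl3 was at 1.97, 1.47 and 2.07 CPM in WT and 1.42, 2.10 and 0.465 CPM in mutant vehicle libraries, a log2 fold change of -0.47 with an SE of 0.42 (edgeR adjusted p = 0.43). Mutant vehicle replicate 3 was the lowest of these 6 libraries for all 3 genes, with 161 counts of Ccl2, 26 of Cxcl2 and 17 of Cxcl3. Without it the log2 fold change was -0.14 for Cxcl2 and -0.08 for Cxcl3, and without mutant vehicle replicate 2 it was -0.75 and -1.0, uncalled in each case. Summed levels of marker lists also stood apart in mutant vehicle replicate 3. Of these 6 libraries it had the lowest dendritic cell sum, at 103 CPM against 239 and 279 in mutant vehicle replicates 1 and 2. It also had the lowest erythroid sum, at 59.7 CPM against 72.6 and 93.7, and the highest monocyte and macrophage sum, at 1678 CPM. The part of these cell types in the chemokine values was not tested.

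Markers of several cell types were called by genotype beside the chemokines. Of all genes tested 14.7% were lower, 16.9% higher and 31.6% either, and the monocyte and macrophage list lay at about the last share. Of 14 tested mast cell and basophil markers 11 were lower in mutant cells and none higher, and the summed level of the list ran from 2530 to 2858 CPM in WT and from 1302 to 1878 CPM in mutant vehicle libraries. Mrgprb2 of this list was at 0 in all 3 mutant vehicle libraries. Of 8 tested eosinophil markers the granule protein genes Epx, Prg2 and Prg3 were lower and Siglecf higher, the sum being 559 to 632 CPM in WT and 232 to 295 CPM in mutant vehicle libraries. Of 14 neutrophil markers 7 were lower and Mmp8 higher (sums of 34407 to 44142 and 29740 to 35349 CPM), and of 16 monocyte and macrophage markers Cx3cr1 was lower and Csf1r, F13a1, Fcgr1 and Ms4a6c higher (sums of 1116 to 1459 and 1386 to 1678 CPM). The 4 monocyte markers called higher became 0 without WT replicate 3 or mutant vehicle replicate 3, 1 without WT replicate 2 or mutant vehicle replicate 2, and 7 without mutant vehicle replicate 1. Cx3cr1 was called in 3 of the 9 fits that leave out 1 library. No eosinophil, neutrophil or monocyte marker in the table was at 0 throughout a group. All 8 megakaryocyte markers and all 5 tested erythroid markers were lower too. The part of these cell types in the chemokine differences was not tested.

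**Figure D2:**
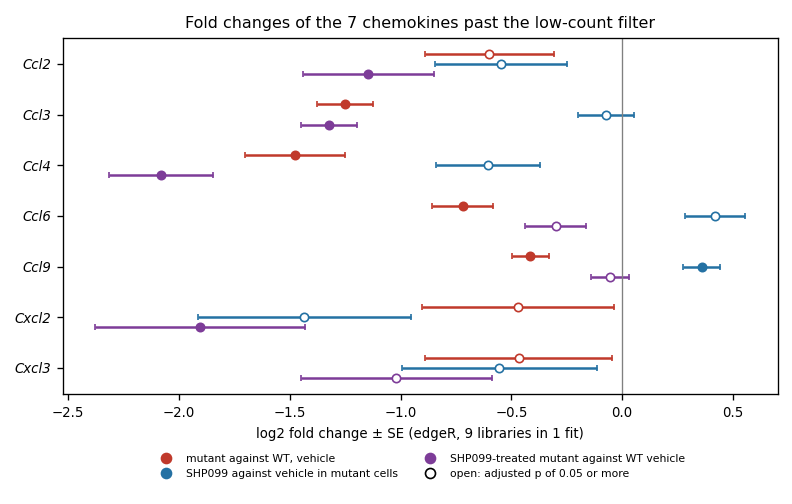
Log2 fold change ± SE of the 7 tested chemokines in the 3 comparisons, each from 1 edgeR fit of 9 libraries. Filled points have an adjusted p under 0.05. Ccl6 and Ccl9 lie right of 0 for SHP099 against vehicle and left of 0 for mutant against WT, while Ccl2, Ccl4, Cxcl2 and Cxcl3 lie left of 0 in all 3.

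With SHP099 in mutant cells, Ccl9 rose 1.28-fold, the sole one of the 7 tested chemokines called without pairing the cultures. With the culture number as a replicate block, Ccl6 was also called higher, and Ccl4 and Cxcl2 lower, so that 4 of the 7 were called, 2 in each direction. Among all 13270 genes tested without the block, 8.81% were higher, 13% lower and 21.8% either, and with the block 12.5%, 14.6% and 27.1%. The median log2 fold change was -0.55 over the 7 chemokines, -0.47 with the block, and 0.00 over all genes. The culture number comes from the labels, and libraries that share it deviated together from their group means.

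Ccl9 was at 222, 231 and 263 CPM with vehicle and 291, 286 and 343 CPM with SHP099 in cultures 1 to 3. Each treated library was higher than each vehicle library. The log2 fold change was 0.36 (SE 0.08, edgeR adjusted p = 0.014), and the differences within cultures 1 to 3 were 0.39, 0.31 and 0.38 on the log2 scale. Without SHP099 replicate 3 it was 0.27 (edgeR adjusted p = 0.047), and without mutant vehicle replicate 1 the call was lost (0.31, edgeR adjusted p = 0.055).

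Ccl6, like Ccl9 a CCR1 ligand gene, was at 565, 584 and 787 CPM with vehicle and 795, 791 and 1004 CPM with SHP099. The groups did not overlap, although the highest vehicle library, culture 3, came close to the lowest treated one. The log2 fold change of 0.42 (SE 0.14), 1.34-fold, had an edgeR adjusted p of 0.053. With the replicate block it was 0.43 (SE 0.06, edgeR adjusted p = 0.0015), and Ccl6 was higher with SHP099 in 3 of 3 cultures, by 0.49, 0.44 and 0.35. The unblocked value was 0.60 (edgeR adjusted p = 0.011) when mutant vehicle replicate 3 was left out and 0.30 (edgeR adjusted p = 0.17) when SHP099 replicate 3 was.

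Cxcl2, a neutrophil attractant of the CXCR2 ligand family, had few reads. Its counts were 59, 84 and 26 with vehicle and 31, 33 and 8 with SHP099, or 1.86, 2.0 and 0.711 CPM against 0.684, 0.782 and 0.206 CPM. A count of 8 has an exact Poisson 95% interval of 3.45 to 15.8, for counting error only. The groups overlapped, since vehicle culture 3 lay among the treated libraries, but within each culture the treated library was lower, by 1.38, 1.3 and 1.56 on the log2 scale. The log2 fold change was -1.43 (SE 0.48), 2.70-fold lower, with an edgeR adjusted p of 0.059, and -1.47 (SE 0.25, edgeR adjusted p = 0.0028) with the replicate block. It was called without the block when mutant vehicle replicate 3 was left out (-1.76, edgeR adjusted p = 0.025), and it was -1.06 when SHP099 replicate 3 was (edgeR adjusted p = 0.14).

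Ccl4 was at 6.32, 11.6 and 10.3 CPM with vehicle and 4.61, 7.63 and 6.40 CPM with SHP099. The groups overlapped, and within cultures 1 to 3 the treated library was lower by 0.45, 0.60 and 0.68 on the log2 scale. The log2 fold change was -0.60 (SE 0.24, edgeR adjusted p = 0.096), and -0.59 (SE 0.12, edgeR adjusted p = 0.0063) with the replicate block. Leaving SHP099 replicate 3 out of the blocked fit, an alternative added after seeing the data, ended the call (-0.53, edgeR adjusted p = 0.058). In that fit Ccl6 (0.47), Ccl9 (0.35) and Cxcl2 (-1.39) were still called, with edgeR adjusted p of 0.014, 0.016 and 0.022. Without mutant vehicle replicate 1 and without the block, Ccl4 was called lower (-0.82, edgeR adjusted p = 0.028).

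The remaining 3 tested genes were not called in either fit. Ccl3 was nearly level, at 17.8, 21.4 and 24.5 CPM with vehicle and 18.2, 19.3 and 23.3 CPM with SHP099. Its log2 fold change was -0.07 (SE 0.13, edgeR adjusted p = 0.73), and the sign turned when mutant vehicle replicate 3 (0.06) or SHP099 replicate 1 (0.02) was left out. Ccl2 was at 7.90, 8.30 and 4.4 CPM with vehicle and 5.96, 4.93 and 3.19 CPM with SHP099, lower in 3 of 3 cultures by 0.40, 0.75 and 0.46. Its log2 fold change was -0.55 (SE 0.30, edgeR adjusted p = 0.22; 0.055 with the replicate block). Cxcl3 was at 1.42, 2.10 and 0.465 CPM with vehicle and 0.728, 1.21 and 0.796 CPM with SHP099, lower in cultures 1 and 2 and higher in culture 3. Its log2 fold change was -0.55 (SE 0.44), with an edgeR adjusted p of 0.41, and it was -0.02 without mutant vehicle replicate 2 and -0.94 without mutant vehicle replicate 3. Mutant vehicle culture 3 had 17 counts of Cxcl3, with an exact Poisson 95% interval of 9.90 to 27.2.

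**Figure D3:**
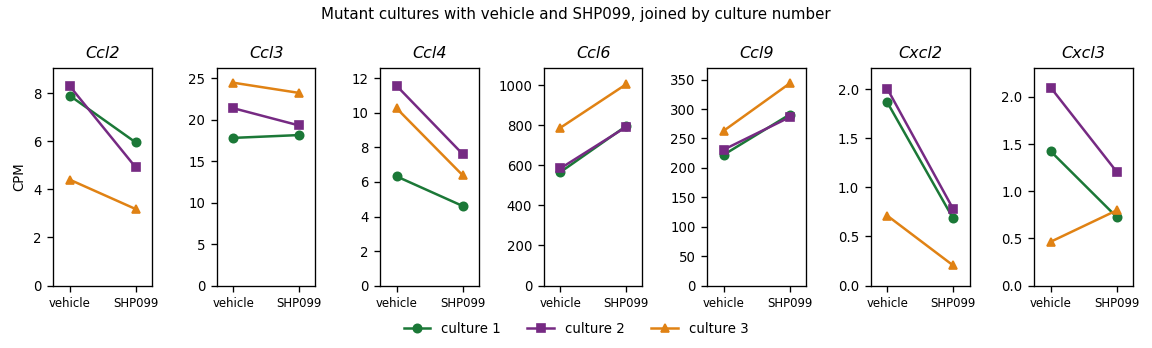
Level in CPM, from 0, of each tested chemokine in the mutant cultures with vehicle and with SHP099, with a line joining the libraries of 1 culture number. Ccl6 and Ccl9 were higher with SHP099 in 3 of 3 cultures, Ccl2, Ccl4 and Cxcl2 lower in 3 of 3, and Ccl3 and Cxcl3 went both ways.

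Some cell type markers were also called with SHP099. The shares of all genes tested were 8.81% higher, 13% lower and 21.8% either, and 12.5%, 14.6% and 27.1% with the replicate block. Without the block, the eosinophil list and the monocyte and macrophage list did not exceed the share called either way. Of the mast cell and basophil markers 5 of 14 were higher (Fcer1a, Ms4a2, Cpa3, Cma1 and Mcpt2; 10 with the replicate block) and none lower, and their sum ran from 1302 to 1878 CPM with vehicle and from 1885 to 2497 CPM with SHP099. Of the neutrophil markers S100a8, S100a9, Ngp and Lcn2, 4 of 14, were higher (7 with the block, 1 with the transcript length trend removed) and none lower (29740 to 35349 against 38229 to 46002 CPM), and of the monocyte and macrophage markers Cx3cr1, Ly6c2 and Cd14, 3 of 16, were higher and none lower (1386 to 1678 against 1973 to 2159 CPM). Of the eosinophil markers 1 of 8 was lower, the granule peroxidase gene Epx, and none was higher (232 to 295 against 206 to 246 CPM; 1 lower and 1 higher with the block). Epx was not called when mutant vehicle replicate 2 or 3 or SHP099 replicate 1 or 2 was left out. Of 8 megakaryocyte markers Pf4 and Gp1bb were higher (6 with the block, 5 without mutant vehicle replicate 2 or SHP099 replicate 1) and none lower, with sums of 1317 to 1797 CPM with vehicle and 1619 to 2161 CPM with SHP099. Only 2 of the 9 lymphoid markers were tested. Of these Nkg7, a granule gene of cytotoxic lymphocytes, was higher (0.63, SE 0.04). The sum of that list, 115 to 119 CPM with vehicle, was 169 to 186 CPM with SHP099, while the number of its genes at 0 throughout the group went from 2 to 3. The part of these cell types in the chemokine differences was not tested.

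Treated mutant cells were then compared with WT vehicle cells, a comparison that shares its libraries with both others. Of the 7 tested chemokines 4 were lower and none higher, namely Ccl2, Ccl3, Ccl4 and Cxcl2. Of all genes tested, 16.3% were lower, 15.4% higher and 31.7% either. The median log2 fold change was -1.15 over the 7 chemokines and 0.00 over all genes.

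Ccl4 was 4.23-fold lower than in WT cells, at 6.21 ± 1.51 against 26.2 ± 4.06 CPM (SD, n = 3), a log2 fold change of -2.08 with an SE of 0.23 (edgeR adjusted p = 0.00045). Cxcl2 was 3.74-fold lower, at 0.557 ± 0.308 against 2.10 ± 0.561 CPM, a log2 fold change of -1.90 with an SE of 0.47 (edgeR adjusted p = 0.014). Ccl3 was 2.50-fold lower, at 20.2 ± 2.67 against 50.5 ± 4.30 CPM, a log2 fold change of -1.32 with an SE of 0.13 (edgeR adjusted p = 0.00022). In none of the 3 genes did the treated libraries overlap the WT libraries. How many of all genes tested lacked overlap was not counted here either.

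Ccl2 was 2.21-fold lower in treated mutant than in WT cells, at 4.69 ± 1.40 against 10.4 ± 2.97 CPM without overlap, a log2 fold change of -1.15 with an SE of 0.30 (edgeR adjusted p = 0.017). This call was lost without WT replicate 1, the highest WT library (-0.91, edgeR adjusted p = 0.057). Cxcl3 did not overlap between the groups either, at 0.911 ± 0.259 against 1.84 ± 0.318 CPM, but was not called (-1.02, SE 0.43, edgeR adjusted p = 0.099). It was called in a fit of these 2 groups alone (-1.02) and in one without mutant vehicle replicate 3 (-1.02), both with an edgeR adjusted p of 0.019.

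For the abundant genes the treated mutant libraries overlapped the WT libraries. Ccl9 stood at 307 ± 31.9 against 318 ± 18.0 CPM, a log2 fold change of -0.05 with an SE of 0.08 (edgeR adjusted p = 0.65). Ccl6 stood at 863 ± 122 against 1063 ± 94.3 CPM, a log2 fold change of -0.30 with an SE of 0.14 (edgeR adjusted p = 0.12). Ccl6 was called lower without SHP099 replicate 3 (-0.44) and without mutant vehicle replicate 3 (-0.30), both with an edgeR adjusted p of 0.049.

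The marker lists also held called genes here, beside 16.3% lower, 15.4% higher and 31.7% either of all genes tested. Of the mast cell and basophil markers 5 of 14 were lower in treated mutant than in WT cells and Fcer1a was higher. Of the eosinophil markers 4 of 8 were lower and 1 higher, of the neutrophil markers 3 of 14 lower and 2 higher, and of the monocyte and macrophage markers 9 of 16 higher and none lower. All 8 megakaryocyte markers and all 5 tested erythroid markers were lower, 6 to 8 and 3 to 5 with 1 library left out, and both tested lymphoid markers, Nkg7 and Cd79b, were higher. The Cd79b call was lost without WT replicate 3 or SHP099 replicate 1 or 2. The neutrophil counts moved to between 1 and 5 lower and between 1 and 3 higher with 1 library left out. The part of these cell types in the chemokine differences was not tested.

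Ratios of counts within a library do not depend on how libraries are scaled. The ratio of Ccl6 to Ccl3 counts was 19.6, 22.3 and 21.3 in WT libraries, 31.7, 27.3 and 32.1 in mutant vehicle libraries and 43.8, 40.9 and 43.2 in mutant SHP099 libraries. The 3 groups did not overlap. Each pair of groups gave a two-sided exact permutation p of 0.1, the smallest that 3 libraries against 3 allow, and an adjusted p of 0.19 over the 15 tests of 5 ratios. The permutations ignored the culture number, which pairs the libraries of the 2 mutant groups. The ratio of Ccl6 to Ccl9 was 3.34 ± 0.149 in WT, 2.69 ± 0.262 in mutant vehicle and 2.81 ± 0.10 in mutant SHP099 libraries (SD, n = 3), with overlap between the 2 mutant groups. Ccl3 to Ccl4 was 1.94 ± 0.135, 2.35 ± 0.485 and 3.37 ± 0.739 in the same order.

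**Figure D4:**
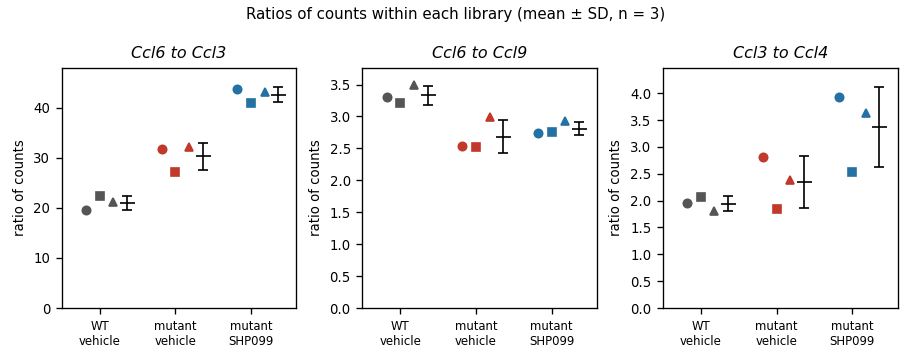
Ratio of the counts of 2 chemokines within each library, from 0 on a linear axis, by group (circle, square and triangle for replicates 1, 2 and 3), with mean ± SD (n = 3). The ratio of Ccl6 to Ccl3 runs from 19.6 to 22.3 in WT, 27.3 to 32.1 in mutant vehicle and 40.9 to 43.8 in mutant SHP099 libraries.

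The summed level of the 8 chemokines was 1378 to 1602 CPM in WT, 823 to 1090 CPM in mutant vehicle and 1111 to 1381 CPM in mutant SHP099 libraries. The mutant vehicle libraries lay below all others, and the highest SHP099 library overlapped the lowest WT library. The 8 genes held 45.6% to 48.5% of the counts of all listed chemokine ligands in WT libraries, 49.4% to 61.3% in mutant vehicle and 49.97% to 56.9% in mutant SHP099 libraries.

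Of 29 other chemokine ligand genes, 14 passed the filter. By genotype 14.7% of all genes tested were lower and 16.9% higher. In mutant vehicle cells 5 of the 14 ligand genes were lower than in WT cells and none higher, with a median log2 fold change of -0.70. They were the platelet chemokine genes Pf4 (-1.12, SE 0.11) and Ppbp (-1.27, SE 0.20), Cxcl5 (-1.01, SE 0.20), the eosinophil attractant gene Ccl24 (-1.51, SE 0.44), and Ccl8, whose counts were 94, 32 and 87 in WT and 12, 2 and 1 in mutant vehicle libraries. With SHP099 Pf4 was called higher (0.52, SE 0.11, edgeR adjusted p = 0.01) and no other, with a median of 0.21. In that comparison 8.81% of all genes tested were higher and 13% lower. With the replicate block 2 of the 14 ligand genes were higher and 1 lower, beside 12.5% and 14.6% of all genes tested. With the transcript length trend removed the Pf4 call was lost (0.35, edgeR adjusted p = 0.051). The genotype call of Ccl24 was lost without WT replicate 1 or mutant vehicle replicate 2 or 3. Against WT vehicle cells 7 were lower in treated mutant cells and none higher, beside 16.3% and 15.4% of all genes tested. The 7 became 3 without WT replicate 3, and 4 without SHP099 replicate 2 or 3. Ccl7, a CCR2 ligand gene beside Ccl2, was called in the comparison of treated mutant with WT cells alone among the 3. It stood at 4.41 ± 0.499 CPM in WT, 2.91 ± 1.44 in mutant vehicle and 1.58 ± 0.944 in mutant SHP099 libraries. That call was lost without WT replicate 1 or 3 or SHP099 replicate 2 or 3. Pf4 and Ppbp are also in the megakaryocyte marker list, all 8 of whose tested genes were lower in mutant vehicle than in WT cells.

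**Figure D5:**
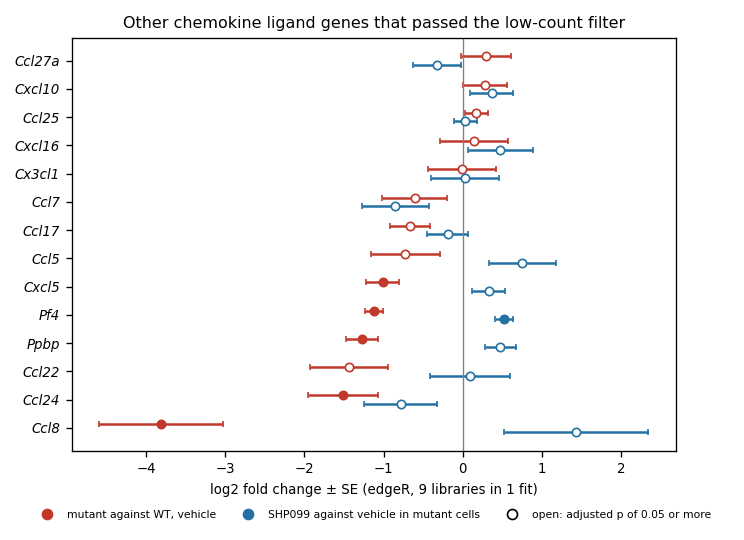
Log2 fold change ± SE of the 14 other chemokine ligand genes that passed the filter, for mutant against WT with vehicle and for SHP099 against vehicle in mutant cells, from 1 edgeR fit of 9 libraries. Filled points have an adjusted p under 0.05: 5 genes lower by genotype and Pf4 higher with SHP099.

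Receptors for several of these ligands were expressed in every group. Ccr1, the receptor for the products of Ccl3, Ccl6 and Ccl9, stood at 86.4 ± 6.78 CPM in WT, 95.7 ± 16.7 in mutant vehicle and 105 ± 17.8 in mutant SHP099 libraries. Cxcr2, the receptor for the CXC ligands, stood at 54.9 ± 3.82, 44.1 ± 9.92 and 53.1 ± 9.35 CPM in the same order. Neither was called in any of the 3 comparisons. Ccr2, the receptor for CCL2, was at 117 ± 21.7, 183 ± 49.7 and 215 ± 66.7 CPM and was called higher in treated mutant than in WT cells (0.88, SE 0.26, edgeR adjusted p = 0.027), a call lost without WT replicate 2 or 3 or SHP099 replicate 2 or 3. Of 12 tested chemokine receptors, 2 were higher with SHP099, Cxcr4 (0.29, SE 0.08) and Cx3cr1 (1.20, SE 0.23), and none was lower. With the replicate block 4 were higher. Of all genes tested 8.81% were higher with SHP099, and 12.5% with the block. The Cxcr4 call was lost in 5 of the 9 fits that leave out 1 library, namely those without 1 of the mutant vehicle libraries or without SHP099 replicate 1 or 3. By genotype Cxcr1, Cx3cr1 and Ackr1 were lower and none was higher, beside 14.7% lower and 16.9% higher of all genes tested. These 3 became 0 without WT replicate 3, 1 without mutant vehicle replicate 2 or SHP099 replicate 2, and 1 lower with 1 higher without mutant vehicle replicate 1. Cxcr1, with 1 to 13 counts in these 6 libraries, passed the filter in 4 of the 9 fits and was called in each of the 4.

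Among 27 genes for transcription and mRNA decay factors known to act on chemokine genes, the median log2 fold change by genotype was -0.23. In mutant vehicle cells 9 were lower and 2 higher than in WT cells, beside 14.7% and 16.9% of all genes tested. The lower ones included the immediate early gene Egr1 (-1.24, SE 0.29) and the AP-1 subunit genes Jun (-0.49, SE 0.09), Jund (-0.50, SE 0.10) and Junb (-0.37, SE 0.08), and the higher ones were Rel and Irf1. Leaving out 1 library gave 5 to 11 lower, 5 without WT replicate 1 or 2 or mutant vehicle replicate 3, and 0 to 5 higher, 0 without WT replicate 3 or mutant vehicle replicate 2 and 5 without mutant vehicle replicate 1. With SHP099, 3 were lower and 2 higher, beside 13% and 8.81% of all genes tested, with a median of 0.08. The list lay below these shares and below the 21.8% of all genes called either way. The lower ones were Nfkbiz, which encodes an atypical inhibitor protein of the NF-kB family (-0.63, SE 0.09, edgeR adjusted p = 0.0015), Junb (-0.29, SE 0.08) and the NF-kB subunit gene Rel (-0.33, SE 0.10). The higher ones were the subunit gene Rela (0.17, SE 0.04) and the inhibitor gene Nfkbia (0.29, SE 0.08). With the replicate block 6 were higher and 4 lower with SHP099, beside 12.5% and 14.6% of all genes tested. Leaving out 1 library gave 1 to 4 lower and 0 to 4 higher, and neither Rela nor Nfkbia was called without mutant vehicle replicate 1 or 3 or SHP099 replicate 1. The Nfkbiz call was kept in all 9 of these fits, that of Junb in 4 and that of Rel in 2. In treated mutant against WT cells 7 were lower and 3 higher, beside 16.3% and 15.4% of all genes tested.

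By genotype 14.7% of all genes tested were lower and 16.9% higher. Of 14 tested genes for other inflammatory mediators, 8 were lower and 2, Il18 and Spp1, higher, with a median log2 fold change of -0.57. The genes with the smallest p were those for the cytokines oncostatin M (Osm, -1.04, SE 0.06), leukaemia inhibitory factor (Lif, -1.37, SE 0.13), macrophage colony-stimulating factor (Csf1, -0.79, SE 0.12), interleukin 13 (Il13, -1.49, SE 0.23) and interleukin 4 (Il4, -0.90, SE 0.21). The 8 lower became 5 without WT replicate 1, and neither Il18 nor Spp1 was called without WT replicate 2 or 3 or mutant vehicle replicate 1 or 2. With SHP099 Lif (0.61, SE 0.13) and the interleukin 1 receptor antagonist gene Il1rn (0.73, SE 0.19) rose, with a median of 0.14. In that comparison 8.81% of all genes tested were higher, 13% lower and 21.8% either. With Ptgs2, named below, the called part of the 14 genes did not exceed the last share. Il1rn was not called without mutant vehicle replicate 3 or SHP099 replicate 1. The prostaglandin synthase gene Ptgs2 (-0.89, SE 0.28) was also called lower, but the call was lost in 8 of the 9 fits that leave out 1 library, all but that without mutant vehicle replicate 1, with RLE size factors, with the 2 groups alone and with the transcript length trend removed. In treated mutant against WT cells 8 were lower and 2 higher, beside 16.3% and 15.4% of all genes tested.

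Genes whose profile over the 9 libraries was most like each chemokine's were found by the root mean square difference of log2 CPM, centred on each gene's own mean, among genes with at least 5 CPM on average. The nearest to Ccl6 was Cd200r3 (0.07), followed by Rom1 (0.10) and Cd28 (0.11). For Ccl9 they were Glb1 (0.07), Cyp4f18 (0.08) and Gnb5 (0.08). Ccl3 was nearest to Prg3 (0.14), Chdh (0.14) and Osm (0.15), and Ccl4 to Itga2 (0.32), Epx (0.33) and Mtss1l (0.36). Prg3 and Epx belong to the eosinophil marker list. Ccl2 was nearest to the immediate early genes Egr2 (0.21) and Fos (0.25) and to Rgl1 (0.25). Cxcl2 was nearest to Mmp13 (0.48), Ccl2 (0.53) and Egr1 (0.53), and Cxcl3 to Srgap3 (0.35), Mast4 (0.37) and Tns1 (0.38). Among the 7 chemokines themselves the closest pair was Ccl6 and Ccl9 (0.16), then Ccl3 and Ccl4 (0.39). These distances are descriptions over 9 libraries that share their groups.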

How the data were processed

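The table holds raw counts per gene symbol, as deposited by the authors. Alignment with STAR to mm10 and counting with featureCounts of Subread, after FastQC, are named in the submitters' processing notes. Neither versions nor the annotation release or strand setting are given in the sources used here.

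The tests were run with edgeR 4.0.16 (R 4.3.3). Of 24421 symbols 13270 passed filterByExpr at a minimum count of 10 by group. All 9 libraries, scaled by TMM, entered 1 quasi-likelihood fit that gave each group its mean. Tests were two-sided, with Benjamini-Hochberg adjustment over all tested genes and a threshold of 0.05. The scripts were tested on simulated data. Levels are CPM on scaled library sizes. The SE was taken as the absolute log2 fold change over the square root of F. The biological coefficient of variation was 9.04%. Transcript lengths and positions came from GENCODE M21 on GRCm38, promoters from RefSeq.

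The members and lists were chosen with earlier results of these data known. The genes named were the 8 members, per list up to 5 called genes with the smallest p in a comparison, and the 3 genes most like each member. Receptors of the members, Ccl7 and the cell type markers were named beyond this rule, after their values were seen. Titles give the replicate numbers. Deviations of vehicle and SHP099 libraries from their group means correlated at 0.543, 0.596 and 0.561 for the same number and at -0.359 to -0.227 for different numbers, so the numbers pair these cultures. Between WT and mutant libraries the number marks no pairing. Alternatives were RLE size factors, DESeq2 1.42.0, other filters, each library left out, 2 groups alone, a replicate block and removal of a transcript length trend.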

Additional observations from a re-analysis of the deposited data

How the results depend on the processing

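Mutant against WT kept 4 chemokines called lower, Ccl3, Ccl4, Ccl6 and Ccl9, under all 17 alternatives. For SHP099 against vehicle the count of 1 became 2 with RLE size factors, with no low-count filter and with a filter of at least 1 CPM in 3 libraries (Ccl6 added). It became 4 with DESeq2 and 4 with the replicate block (Ccl6, Ccl4 and Cxcl2 added), 5 with the block and the transcript length trend removed (Ccl2 added, -0.69, edgeR adjusted p = 0.032), and 3 with the block without SHP099 replicate 3, an alternative chosen after seeing the data. Leaving out 1 library gave 1 to 3 chemokines. Ccl3 turned to 0.0567 without mutant vehicle replicate 3 and to 0.0166 without SHP099 replicate 1, within -0.1813 to 0.0567 over the left-out libraries. In treated mutant against WT cells the count was 3 to 6 with a library left out and 5 with the block, which added Ccl6 (-0.31, edgeR adjusted p = 0.02). Compared with the fit of 9 libraries, the block changed no other call among the chemokines. Against WT the block was fitted to the 2 groups alone. Without the block that fit also called Cxcl3 lower in treated mutant cells, and with the block Cxcl3 was not called.

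Over all genes, SHP099 calls went from 2890 to 1769 without SHP099 replicate 3 (1769 to 2976 over the left-out libraries) and to 1514 with the block and without that library. Genotype calls were 4199 in the fit of 9 libraries and 3408 with the 2 groups alone; adding the replicate block to the latter gave 2072, and 2051 with the length trend also removed. Treated mutant against WT had 4209 calls, 4016 with the 2 groups alone, 3024 with the block added and 2417 with the length trend also removed. The genotype split, 2248 higher and 1951 lower, turned to 1908 and 2098 with RLE size factors, 1963 and 2085 with DESeq2, 1432 and 1976 with the 2 groups alone and 732 and 1340 with the block. Between WT and mutant libraries the block is no pairing. The causes of these changes were not tested.

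Counts limit Cxcl2 and Cxcl3, with 8 to 111 and 17 to 88 reads a library, and Cxcl1, with none. The scale differed little between alternatives: the median of all genes moved by under 0.1 log2 units.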
